A study of Mus musculus with 6 samples.

Results

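Gal, Sst and Penk, the precursor genes of galanin, somatostatin and the enkephalins, were examined in RNA of the mouse perioculomotor midbrain, where they were found by symbol and make up 3 of the 5538 genes with values. The mice were C57BL/6 and carried a drug-inducible Cre recombinase (CreER) driven by the Fos promoter, together with a Cre-dependent ribosomal protein fused to green fluorescent protein, eGFP-L10a. All went through 6 hr of sleep deprivation and 3 hr of recovery sleep, with the activating drug 4-OHT given just before one of these phases, so that cells active in that phase received the tag. Neurons tagged in recovery sleep (RS-eGFP) are those the series text is about, while the labels of single libraries carry only IP or Input and a number. IP, in 3 libraries, is RNA pulled down with antibodies against eGFP. Input, also in 3 libraries, is read here as RNA of the same kind of dissected tissue before the pulldown, so that both groups share every allele, the drug and the sleep schedule. Each repeat pooled 4 to 5 mice, no age or sex is in the labels, and the tag marks any cell type in which Fos was active, since the labels name no cell-type promoter. No pulldown from mice without the tag is among the 6 libraries, so RNA carried through the pulldown without the tag was not measured.

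Neuropeptides are made as longer precursors, cut by convertases in the secretory pathway, packed in dense-core vesicles and released to act on G protein-coupled receptors. Galanin, somatostatin and the enkephalins mostly signal through inhibitory G proteins, which lower cyclic AMP and open inward rectifier potassium channels. Galanin is known from sleep-active neurons of the preoptic area, somatostatin marks many inhibitory neurons, and the enkephalins, made from proenkephalin, are opioid peptides present in many midbrain and hypothalamic cells. A transcript level in bulk tissue or in a pulldown sums over cells, so fewer cells of a type and less RNA per cell cannot be told apart.

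All 3 genes lie on minus strands, with coordinates in GRCm38 (mm10) from GENCODE M21. Gal (ENSMUSG00000024907) is at chr19:3409915-3414544 and has 2 annotated transcripts. Sst (ENSMUSG00000004366), a gene of 2 exons, is at chr16:23889573-23890958. Penk (ENSMUSG00000045573) is at chr4:4133531-4138819 and overlaps the gene A830012C17Rik on the opposite strand, which has no value in the table. The strand setting of the counting is not given in these sources, so reads of those overlapping genes might not have been kept apart. Neither Gal nor Sst overlaps another annotated gene.

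Short stretches of the start regions are shown because Sst is a textbook gene of the cyclic AMP response element, the site through which neuronal activity and cyclic AMP raise transcription, as they also do at Fos, whose promoter drives the tag. RefSeq start windows (GRCm38.p6, 250 bases before to 50 after the start) were searched for the half-site TGACG on both strands, a search that also finds the full palindrome TGACGTCA, in which the half-site and its reverse complement overlap. Of the 3 genes, Sst and Gal had such a window and Penk had none, so the start region of Penk was not searched. The capitals mark the match.
Sst, chr16:23890874-23890903, minus strand: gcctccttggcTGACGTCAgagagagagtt
Gal, chr19:3414509-3414538, minus strand: ggcgctgagccggTGACGcggcagctccca
In Sst the match is the full palindrome, its first base lying 48 bases before the RefSeq start, although the GENCODE transcript Sst-201 starts farther upstream, at 23890958. In Gal the match is a half-site alone, from base 20 of the RefSeq transcript, between the starts of the GENCODE transcripts Gal-202 (3414544) and Gal-201 (3414447). Of 32851 such windows, 20.8% hold the half-site and 1.79% the palindrome. A match is a run of letters, and no binding was measured here.

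The table holds TPM, transcript abundance per length scaled to a fixed total, and every listed value is at least 7 TPM. The median gene of a library ranged from 27.7 TPM in IP 1 and 31.1 in Input 3 to 51.0 to 67.2 in the other 4 libraries, so the same TPM stood at different places within different libraries. Levels are therefore given both as TPM and relative to the median gene of the same library, the latter as a ratio of TPM or as a difference of log2(TPM + 1). Before centring, the median over genes of the log2 difference (IP minus Input) was -0.23. IP 1 and Input 3 stood apart from the other libraries of their groups, and the differences of the 3 genes are also given without both. Values were found for 7 markers of oculomotor and Edinger-Westphal neurons, among them Chat at 34.7 to 40.1 TPM in Input.

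Gal, the galanin precursor, had a higher level in each library of tagged-ribosome RNA than in any Input library. Its level was 67.5, 65.0 and 73.1 TPM in the IP libraries (replicates 1 to 3 in turn, as throughout), and 23.7, 28.4 and 20.1 TPM in the Input libraries. No IP value came near an Input value: the lowest IP library held more than any Input library, and all 3 IP values lay within a narrow band. The IP mean was 68.5 ± 4.13 TPM and the Input mean 24.1 ± 4.20 TPM (SD, n = 3 each), a ratio of 2.85.

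**Figure D1:**
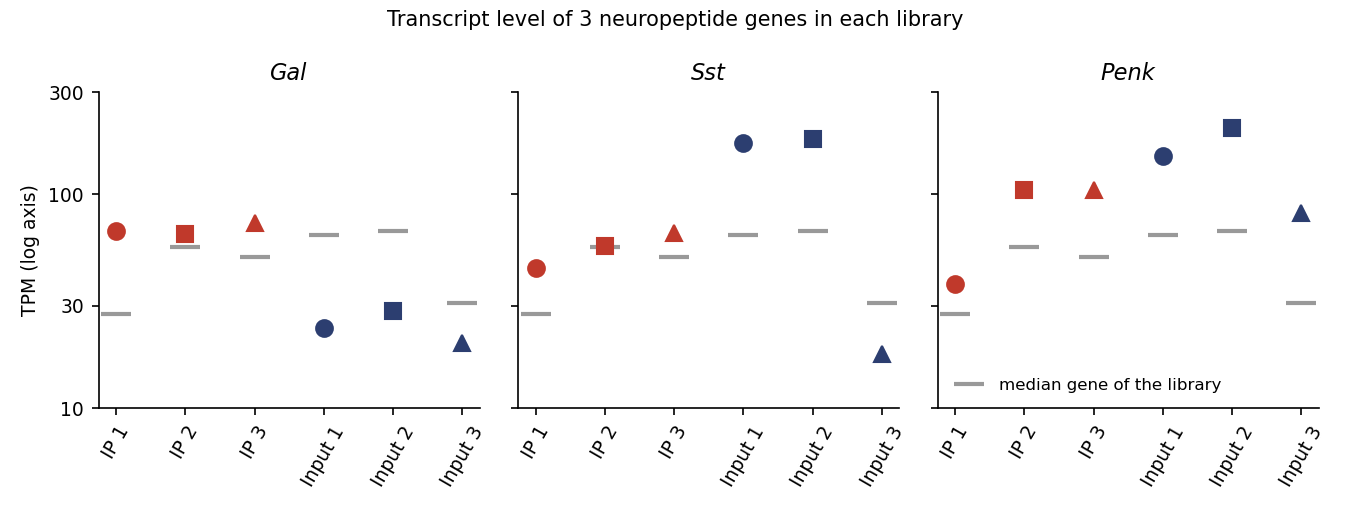
TPM of Gal, Sst and Penk on a log axis in each of the 6 libraries (red for IP and blue for Input; circle, square and triangle for replicates 1, 2 and 3), with a grey bar at the median gene of that library. Gal lies above the bar in all IP libraries and below it in all Input libraries, Penk lies above it in every library, and Sst drops from 174 and 181 TPM in Inputs 1 and 2 to 17.8 in Input 3.

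Relative to the median gene, Gal crossed from the lower to the upper part of the list. It stood at 2.44, 1.15 and 1.43 times the median gene in IP and at 0.368, 0.423 and 0.646 times in Input. By rank it was gene 1412, 2440 and 2030 of 5538 in IP, and gene 4810, 4676 and 3771 in Input. Thus 55.9% to 74.5% of genes were lower than Gal in the IP libraries, and 13.1% to 31.9% in the Input libraries. The log2 difference on this centred scale was 1.73 (SE 0.35), or 3.32-fold, the 47th highest of 5538 genes.

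That difference did not pass the test over all genes (limma adjusted p = 0.649), and at the adjusted threshold of 0.05 limma called no gene in either direction (0% higher and 0% lower, 0 genes each). Before adjustment, at a p of 0.05, it had 198 genes on the higher side and 213 on the lower. Without Input 3 alone, 16 genes were called higher and 1 lower, Gal not among them (adjusted p = 0.110). Groups that do not overlap, with all IP above all Input, were found in 384 genes (6.93%) on the centred scale and in 94 (1.7%) in TPM as deposited. With every library left out in turn the differences ran from 1.43 to 1.96. Their sign could not turn, because the groups did not overlap on the centred scale. Without IP 1 and Input 3, which leaves 2 libraries a group, Gal was called higher, with a log2 difference of 1.66 (SE 0.21, limma adjusted p = 0.00373, against a range of 0.00373 to 0.999 over all alternatives). In that fit 187 genes (3.38%) were called higher and 160 (2.89%) lower. Over all 6 libraries, 5 of the 7 oculomotor and Edinger-Westphal markers with values had a positive difference. The other 2, Ucn and Cartpt, had negative ones (-0.13 and -0.34). For 3 of the 7 (Chat, Isl1 and Prph) all IP lay above all Input, as for Gal. The 7 summed to 1425 to 1809 TPM in IP and 827 to 3660 in Input, of which Cartpt alone was 809 to 1003 and 415 to 2769. Of 3 endothelial and blood markers 1, Ly6c1, had all IP above all Input, while Hba-a1 and Hbb-bs had differences of -0.61 each. These 3 summed to 98.7 to 512 TPM in IP and 41.3 to 968 TPM in Input. The part of these cells in the Gal values was not tested.

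The spread of Gal depended on the scale. Its TPM varied by 6.02% (CV) among the IP libraries, and only 2.26% of genes varied less, against a median of 37.4% over all genes. Relative to the median gene its SD in IP was 0.54 log2 units, with 74.4% of genes varying less, IP 1 being the library with the lowest median gene. In Input the CV of Gal was 17.5%, against a median of 40.2% over all genes.

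Penk, the enkephalin precursor, was the reverse of Gal in order, though by a smaller step. It stood at 37.8, 105 and 105 TPM across IP and at 151, 204 and 81.4 across Input, so that in TPM the groups overlapped, with Input 3 below IP 2 and IP 3. Set against the median gene they separated, at 1.37, 1.85 and 2.06 times in IP and 2.35, 3.05 and 2.62 times in Input. All 3 IP values were below all 3 Input values on this scale, which was so for 538 genes (9.71%), while 344 genes (6.21%) did so in TPM as deposited. The ranks of Penk were 2206, 1512 and 1434 in IP and 1319, 942 and 1098 in Input, so it stayed in the upper part of the list in all 6 libraries.

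The log2 difference of Penk was -0.61 (SE 0.26), a level in IP of 0.655 times that in Input, and did not pass the test (limma adjusted p = 0.649). With each library left out it ran from -0.73 to -0.44, and its sign could not turn, since the groups did not overlap on the centred scale. Without IP 1 and Input 3 it was -0.45 (SE 0.20, adjusted p = 0.217), not called, and without centring those same 4 libraries it was -0.74 and called lower (adjusted p = 0.0408), where 936 genes (16.9%) were lower and 121 (2.18%) higher. Over all alternatives the adjusted p ranged from 0.0408 to 0.999. In Input, Penk kept its place among genes: its SD relative to the median gene was 0.19 log2 units, with 23.8% of genes varying less, and Input 3 differed from the mean of Inputs 1 and 2 by -0.04.

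**Figure D2:**
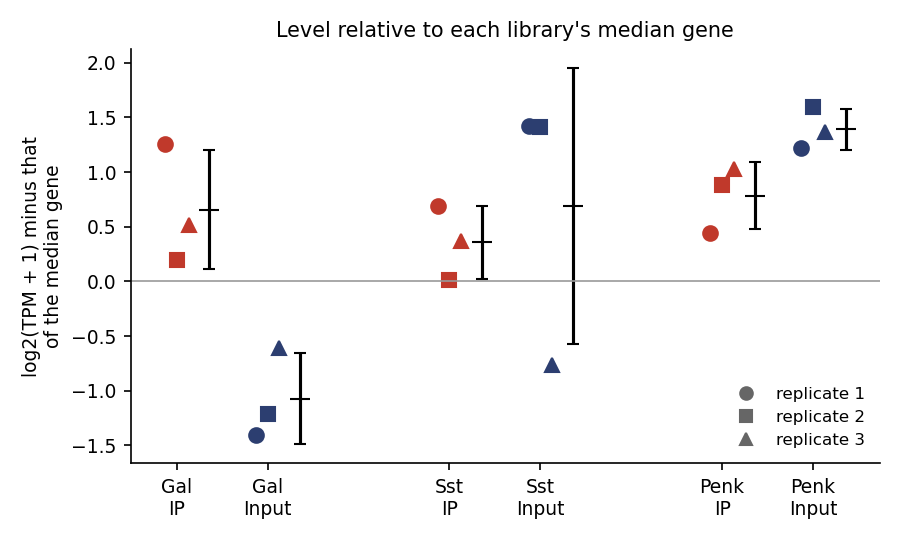
Level of each gene as log2(TPM + 1) minus that of the median gene of the same library, by group (red for IP, blue for Input), with the replicate number shown by marker shape and the mean ± SD (n = 3) in black beside them. The IP points of Gal all exceed its Input points, those of Penk are all below its Input points, and the Input points of Sst split, with Input 3 at -0.77 and Inputs 1 and 2 at 1.42 and 1.41.

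Sst, the somatostatin precursor, had no single direction, and its Input libraries disagreed. Its level was 45.1, 57.0 and 66.1 TPM across IP, against 174, 181 and 17.8 TPM across Input. Every IP library lay below Inputs 1 and 2 and above Input 3. Against the median gene Sst stood at 1.63, 1.01 and 1.30 times in IP, and at 2.71, 2.69 and 0.574 times in Input. Its rank was 1933, 2750 and 2213 across IP, and 1124, 1068 and 4024 across Input.

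Over all 6 libraries the log2 difference of Sst was -0.33 (SE 0.59, limma adjusted p = 0.866), smaller than its SD of 1.26 among the Input libraries. It was 0.03 without Input 1 and 0.03 without Input 2, and -1.06 (adjusted p = 0.197) without Input 3. Without both IP 1 and Input 3, which leaves 2 libraries a group, Sst was among the 160 genes (2.89%) called lower. Its difference was then -1.23 (SE 0.20, limma adjusted p = 0.0105, over a range of 0.00345 to 0.999), or 2.34-fold. Input 3, left out there, is the only Input library in which Sst lay below the IP libraries.

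The drop of Sst in Input 3 was among the largest of the listed genes. Relative to the median gene it differed from the mean of Inputs 1 and 2 by -2.19 log2 units, and 1.95% of genes had a larger drop, while the median over all genes was 0.01. The summed markers of every cell type listed also had their lowest Input TPM in Input 3. The median gene of that library stood at 31.1 TPM against 64.3 and 67.2 in Inputs 1 and 2. The summed TPM of 3 measured serotonergic markers (of 4 listed) was 2572, 1685 and 152 in Inputs 1, 2 and 3, and 176 to 1051 in IP. For 5 of 10 astrocyte markers it was 778, 851 and 230 in Input and 261 to 480 in IP. Single astrocyte markers did not all share this: Gfap was at 21.7, 35.8 and 67.3 TPM across Input, highest in Input 3, and S100b stood 1.64, 1.89 and 1.74 log2 units above the median gene of those libraries. The sum of 6 of 8 oligodendrocyte markers was 4108, 4877 and 536 in Input, and 365 to 4437 in IP. Dopaminergic markers summed to 1441, 1171 and 133 TPM across Input, and endothelial and blood markers to 400, 968 and 41.3. Microglial markers summed to 56.4, 85.5 and 33.2. Oculomotor and Edinger-Westphal markers summed to 2862, 3660 and 827, though Chat, Slc18a3, Slc5a7 and Isl1 among them were highest in Input 3. The defining genes Fev, Aqp4 and Mog had no value in the table, and no listed gene is at 0. The part of these cells in the Sst values was not tested.

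The balance among the 3 genes, which does not move with a library's scale, separated the IP from the Input libraries for Gal and Penk. For the log2 ratio this follows from the levels relative to the median gene, with all IP above all Input for Gal and below for Penk. The separation and its exact permutation p are therefore no further evidence beside those 2 patterns. The TPM of Gal divided by that of Penk was 1.78, 0.620 and 0.697 in IP, and 0.157, 0.139 and 0.246 in Input. All IP ratios lay above all Input ratios. The mean log2 ratio was -0.13 ± 0.82 across IP and -2.47 ± 0.44 across Input (SD, n = 3), a difference of 2.34 or 5.06-fold (two-sided exact permutation p = 0.1, the smallest that 3 against 3 libraries allow, and 0.3 adjusted over the 3 pairs of genes). No exact permutation test of these ratios can therefore reach 0.05.

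Gal to Sst was 1.497, 1.14 and 1.11 in IP and 0.136, 0.158 and 1.12 in Input, so that Input 3 fell among the IP libraries. Its log2 difference was 2.06 (exact permutation p = 0.2, adjusted 0.3). Penk to Sst was 0.839, 1.84 and 1.59 in IP and 0.868, 1.13 and 4.57 in Input, with overlapping groups (difference -0.28, exact permutation p = 0.8, adjusted 0.8). The sign of this last difference turned without IP 1 (0.06) and without Input 3 (0.44).

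In order of TPM within a library, Penk led in IP 2, IP 3, Input 2 and Input 3, Gal in IP 1 and Sst in Input 1. Gal exceeded Sst in 3 of 3 IP libraries and in 1 of 3 Input libraries, and exceeded Penk in 1 of 3 IP libraries and in 0 of 3 Input libraries. Penk exceeded Sst in 2 of 3 libraries of each group, so the order of these neighbours was not stable in either.

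Of 49 neuropeptide precursor genes listed, 8 had values, and those 8 summed to 1420, 1752 and 1790 TPM in IP and to 3317, 4278 and 742 TPM in Input. Cartpt, the precursor of CART, made up 53.6% to 57.0% of that sum in IP and 55.9% to 67.4% in Input. Gal made up 4.76%, 3.71% and 4.08% in IP and 0.714%, 0.665% and 2.70% in Input, again without overlap. Sst made up 3.18% to 3.70% in IP and 2.40% to 5.25% in Input. Penk made up 2.67% to 5.98% in IP and 4.56% to 11.0% in Input, where the highest share was that of Input 3. Together the 3 genes came to 10.6% to 13.6% in IP and 9.66% to 16.1% in Input, so their joint share overlapped while that of Gal did not. The share of Calca, a precursor gene of the CGRP peptides, separated likewise, at 5.06% to 7.39% in IP and 0.793% to 3.80% in Input. Shares of the remaining measured precursors overlapped between the groups.

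**Figure D3:**
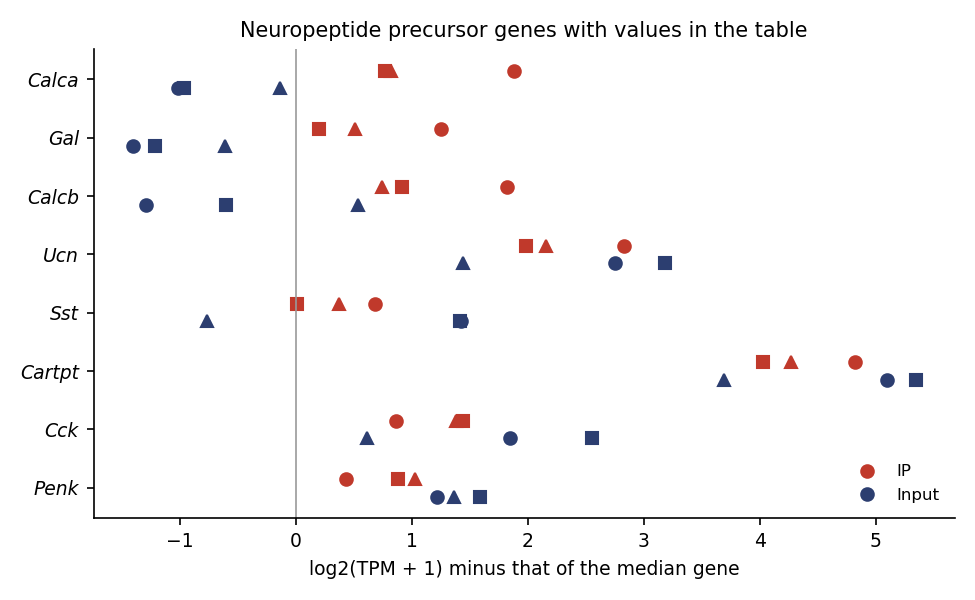
Level of the 8 measured neuropeptide precursors as log2(TPM + 1) minus that of the median gene of the same library along the horizontal axis. Red points are IP and blue points Input, drawn as a circle, square or triangle by replicate number. For Gal, Calca and Calcb every IP point lies to the right of every Input point, for Penk to the left, and for Sst, Cartpt, Ucn and Cck the triangle of Input 3 lies to the left of every IP point.

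Of these 8 precursors, 3 had a positive difference and 5 a negative one, none was called by limma, and the median was -0.23 against 0.02 over all genes. Without IP 1 and Input 3, 3 were called higher (Gal, Calca and Calcb) and 3 lower (Sst, Cartpt and Ucn), where 3.38% and 2.89% of all genes were. Calca and Calcb, the closely similar precursor genes of the CGRP peptides, stood beside Gal with differences of 1.86 and 1.61 (adjusted p = 0.649 each). Calca was also the gene most like Gal across the 6 libraries (Pearson r = 0.995 on the centred scale, of 2630 genes searched), with 105, 97.0 and 90.6 TPM across IP and 31.3, 33.9 and 28.2 across Input. Next were Ybx3, a cold-shock domain RNA-binding protein (r = 0.994), and Acvr2b, an activin receptor (r = 0.988). Acvr2b stood at 118, 108 and 97.5 TPM across IP and at 21.6, 19.3 and 22.6 across Input.

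The genes most like Sst shared its low value in Input 3, which choosing them by r with Sst favours. They were Tmem91 (r = 0.987), Cst3, which encodes the secreted protease inhibitor cystatin C (r = 0.986), and Bex3 (r = 0.985). Cst3 stood at 329, 535 and 514 TPM across IP and at 1371, 1531 and 126 across Input. The genes most like Penk were Tprkb (r = 0.988), Desi1 (r = 0.978) and Camk1, a calmodulin-dependent kinase (r = 0.975). Camk1 stood at 64.9, 146 and 142 TPM across IP and at 197, 258 and 102 across Input, with the lowest value of each group in IP 1 and Input 3, as for Penk. Among the 3 genes themselves, r was -0.88 between Gal and Penk, -0.35 between Gal and Sst, and 0.13 between Penk and Sst. These values describe 6 libraries that fall into 2 groups, and so carry the group difference within them.

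Receptors come next in the pathway. Of 12 genes for galanin, somatostatin and opioid receptors, only Oprl1, the receptor of the opioid-related peptide nociceptin, had values, at 17.2, 68.9 and 53.7 TPM across IP and 81.9, 76.2 and 12.8 across Input (log2 difference 0.13, SE 0.47, adjusted p = 0.932). Groups overlapped, with IP 1 and Input 3 low in both. For the other 11 no level is given here.

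Genes of inhibitory G protein signalling, the step after those receptors, were measured for 15 of 25 entries. None was called, 3 had a positive and 12 a negative difference, and the median was -0.38. The G protein gamma subunit Gng2 stood at 27.1, 35.9 and 42.4 TPM across IP and at 109, 89.8 and 27.2 across Input (difference -0.64, SE 0.32). Gng3, Gnb5 and Rgs19 had differences of -0.55, -0.47 and -0.52. Without IP 1 and Input 3, 1 of the 15, Gng2, was called lower, against 2.89% of all genes. Gng2 had its lowest Input TPM in Input 3, as did the summed markers of every cell type listed, and the part of those cells was not tested.

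Peptide precursors need convertases and granins to be cut and stored. Of 19 listed genes for granins, convertases and other maturing proteins, 12 had values and none was called, with 4 positive and 8 negative differences and a median of -0.19. Scg2, which encodes secretogranin II of dense-core vesicles, stood at 70.0, 347 and 266 TPM across IP and at 876, 756 and 114 across Input (difference -0.93, SE 0.58), the split of the Input libraries seen in Sst. Scg5, the chaperone of the convertase PC2, and Qpct, which forms the cyclic end of some peptides, had differences of -0.57 and -0.43, and Chga, chromogranin A, had 0.38. Without IP 1 and Input 3, 2 of the 12, Scg2 and Scg5, were called lower and 0 higher, in a fit that called 2.89% of all genes lower and 3.38% higher.

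Of 15 peptidases known to break neuropeptides down, 6 had values and none was called with 6 libraries or with 4. Their differences were positive for 5 and negative for 1, with a median of 0.16. Npepps, an aminopeptidase that cleaves enkephalins among other peptides, was at 50.2 ± 20.6 TPM across IP against 48.7 ± 25.3 across Input (SD, n = 3 each). Ide, insulin-degrading enzyme, which also cleaves somatostatin, had 20.2 ± 10.3 and 18.6 ± 12.1 TPM. Thop1 and Rnpep had differences of 0.15 and 0.17. For each of these enzymes the groups overlapped.

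Genes of fast transmission are given because somatostatin and enkephalin are common in inhibitory neurons. Of 13 listed, 5 had values and none was called, with a median of -0.40. Without IP 1 and Input 3 that median changed sign, to 0.35. Calb2, the calcium-binding protein calretinin, was the 1 of the 5 with all IP below all Input on the centred scale (9.71% of all genes), as Penk was, at 58.2, 117 and 150 TPM across IP and 355, 363 and 122 across Input on the TPM scale, where IP 3 lies above Input 3. The groups separate only after centring (difference -1.06, SE 0.28, adjusted p = 0.649), and Calb2 was called lower without IP 1 and Input 3 (adjusted p = 0.0188), as were 2.89% of all genes.

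The enzymes that make GABA differed from each other in Input 3. Gad1 stood at 19.1, 150 and 229 TPM across IP and at 214, 146 and 147 across Input, and its Input 3 was level with Input 2. Gad2 stood at 10.3, 71.9 and 76.4 TPM across IP and at 115, 88.7 and 22.4 across Input. Pvalb, the calcium-binding protein parvalbumin, stood at 391, 359 and 387 TPM across IP and at 125, 249 and 427 across Input (difference 0.92, SE 0.70). Pvalb was called higher without IP 1 and Input 3 (adjusted p = 0.0317), as were 3.38% of all genes.

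**Figure D4:**
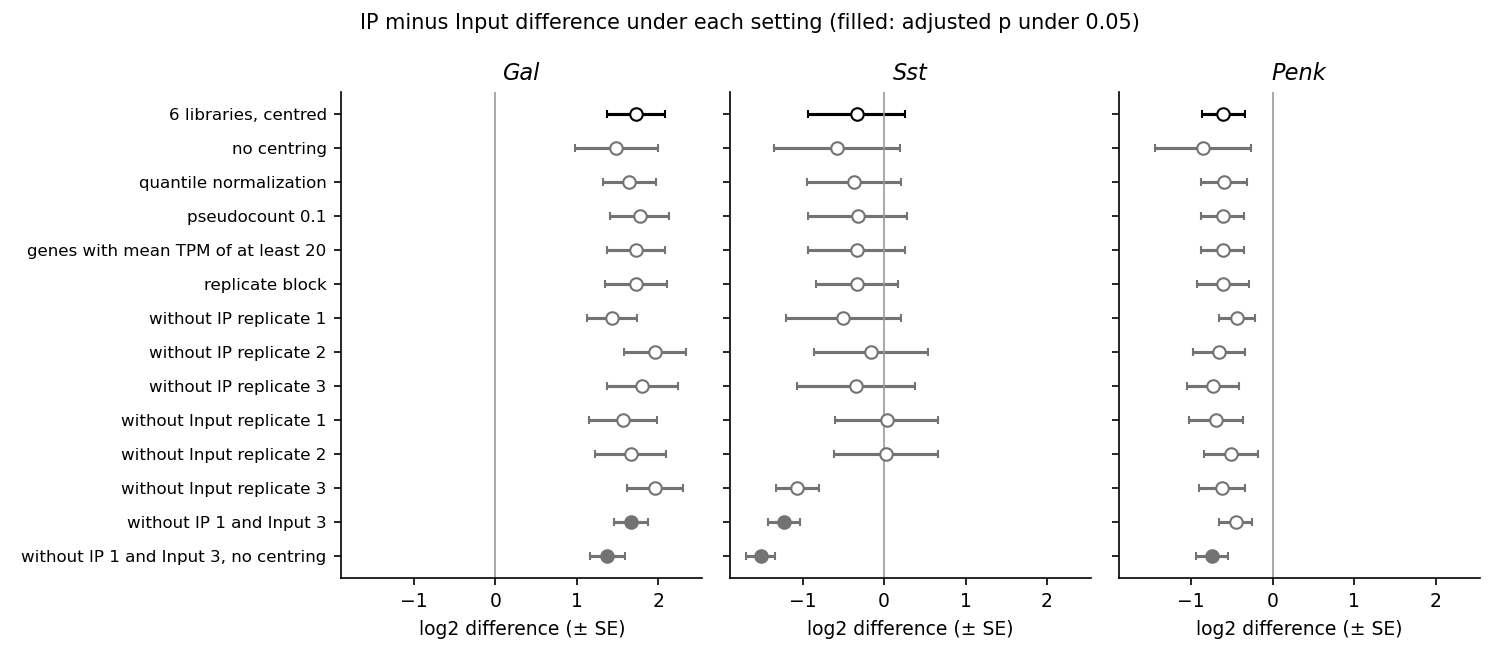
Log2 difference of IP minus Input (± SE, horizontal axis) for Gal, Sst and Penk under each setting named at the left, with the value from 6 centred libraries in black and filled points where the limma adjusted p is under 0.05. Gal stays between 1.38 and 1.96, Penk between -0.86 and -0.44, and Sst moves from 0.03 without Input 1 to -1.51 with IP 1 and Input 3 left out and no centring.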

How the data were processed

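RNA sequencing values of 3 IP and 3 Input libraries were used as the authors deposited them. Per the file headers every column is TPM, and per the submitters' processing notes RSEM, DESeq and the build mm10 were used, with no versions or roles. Aligner, strand setting and the filter behind the 7 TPM minimum are not given in the sources used here. TPM keep no read depth, so the number of reads behind a value, and with it any counting interval, is unknown.

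TPM were transformed to log2(TPM + 1) and centred on each library's median gene. IP was compared with Input by limma 3.58.1 (R 4.3.3; lmFit, eBayes with trend), group as the only term, with no filter on low values and Benjamini-Hochberg adjustment over all 5538 genes, threshold 0.05. The count test planned for counts was not needed. The fit was tested on simulated data. Log2 differences on this scale understate changes of low genes. Ratios of genes within a library were compared by two-sided exact permutation tests (scipy 1.17.1). Replicates are pools of mice. The p-values rest on the spread between libraries of a group, which limma moderates over all genes. Differences between pools cannot be told apart there from those of pulldown or library. Whether an IP and an Input library share a pool is not in the labels.

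The genes, lists and alternatives were chosen with earlier results of these data known. Of each list at most 4 measured genes are named as a rule, those with the smallest p, and per gene the 3 most like it by Pearson r over 6 libraries, among genes with a mean TPM at or above the median one and no predicted models or pseudogenes. The other measured precursors (Cartpt, Cck and Ucn) and the cell type markers are named outside this rule, after their values were seen. Alternatives were no centring, quantile normalization, a pseudocount of 0.1, a mean TPM of at least 20, the replicate block, and libraries left out.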

Additional observations from a re-analysis of the deposited data

How the results depend on the processing

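Gal kept its positive and Penk its negative difference under all 13 alternatives run for each, but many of these could not have turned the sign. On the centred scale the groups of both genes did not overlap, which fixed the sign for any libraries left out. The replicate block leaves the difference of a balanced design unchanged. Neither Gal nor Penk was called under no centring, quantile normalization, a pseudocount of 0.1 or a mean TPM of at least 20. Without IP 1 and Input 3 together the values were 1.66 for Gal and -1.23 for Sst, both called, and with no centring as well 1.38, -1.51 and -0.74 for Gal, Sst and Penk, all called. The lone changes of sign for Sst were 0.0329 without Input 1 and 0.0280 without Input 2. The number of genes called went from 0 to 347 without IP 1 and Input 3, and to 1057 with no centring as well (121 higher and 936 lower, against 187 and 160 centred). Fewer samples were used there, and the cause was not tested. Leaving out each library in turn gave 0 to 17 genes called, the 17 without Input 3, and differences of 1.43 to 1.96 for Gal, -1.06 to 0.0329 for Sst and -0.73 to -0.44 for Penk. The ratio of Gal to Sst ranged from 1.53 to 3.03 (log2), Gal to Penk from 1.87 to 2.62 and Penk to Sst from -0.73 to 0.44. The difference of Penk to Sst turned positive without IP 1 (0.0611), without Input 3 (0.438) and without both (0.775).

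Deviations of same-numbered IP and Input libraries from their group means had r over genes of -0.10, 0.25 and -0.17 for numbers 1, 2 and 3. The labels do not say whether the numbers pair the libraries. So few libraries, with IP 1 and Input 3 standing apart, cannot settle it. A block on the replicate number cannot change a difference in this balanced design, only its SE and p. The differences thus stayed at 1.73, -0.33 and -0.61 for Gal, Sst and Penk (limma adjusted p = 0.780, 0.898 and 0.780), with 0 genes called. Those of the ratios stayed at 2.06, 2.34 and -0.28.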
